A study of Mus musculus with 20 samples.

Results

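The genes of fatty acid synthesis and its control were followed here in mouse liver. Fasn, Acaca, Acacb, Acly, Scd1, Elovl6, Srebf1, Mlxipl, Thrsp and Pnpla3 were taken by exact symbol from the platform annotation, which gave 10 genes measured by 22 probe sets, out of 18193 genes and 45037 probe sets in all. The livers came from 20 male mice in 4 groups of 5, PXR-KO mice given CMP013, PXR-KO mice given vehicle, WT mice given CMP013 and WT mice given vehicle, with 1 array per mouse. CMP013, an inhibitor of the β-secretase BACE1, was given at 150 mg/kg/day by oral gavage, 1 dose every 24 h, and the livers were taken at 96 h from mice that were 9 weeks old when dosing began. Controls received the acidified dosing solution alone, which was thickened with HPMC. Food was withdrawn from all animals in the last hours before necropsy, and the food eaten by single animals was not monitored. The PXR-KO mice lack the pregnane X receptor (gene Nr1i2). Their background is labelled C57BL/6NTac in one field and C57BL/6 in another, while WT mice are C57BL/6, so the effects of genotype and background cannot be told apart.

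The liver turns surplus carbohydrate into fat. Acly splits citrate into acetyl-CoA, Acaca and Acacb carboxylate it to malonyl-CoA, Fasn builds palmitate, and Elovl6 and Scd1 lengthen and desaturate the product. The transcription factors SREBP-1c (from Srebf1) and ChREBP (from Mlxipl) drive these genes after feeding, with Thrsp and Pnpla3 among their targets. PXR is a nuclear receptor that senses foreign compounds and turns on drug metabolism genes in hepatocytes. The comparison asked whether these genes fell under CMP013 in livers without PXR and not in livers with it.

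The promoters are shown of the 4 members whose responses lay furthest apart between the genotypes, each by the 1 probe set that stands for the gene. No expression result below was drawn from these sequences. Each run is the 250 bases before the transcription start, read 5′ to 3′ on the strand of the gene, from RefSeq on GRCm38.p6. Capitals mark CCAAT, the sequence bound by the factor NF-Y, or its reverse complement ATTGG. The runs lie at chr5:114165268-114165517 on the plus strand for Acacb, chr3:129532136-129532385 on the plus strand for Elovl6, chr15:84167566-84167815 on the plus strand for Pnpla3 and chr11:120824548-120824797 on the minus strand for Fasn.
Acacb: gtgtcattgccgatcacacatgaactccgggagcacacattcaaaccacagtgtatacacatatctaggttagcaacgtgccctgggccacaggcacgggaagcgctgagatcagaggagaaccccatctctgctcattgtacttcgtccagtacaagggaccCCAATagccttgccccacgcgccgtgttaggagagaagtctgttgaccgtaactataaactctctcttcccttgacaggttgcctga
Elovl6: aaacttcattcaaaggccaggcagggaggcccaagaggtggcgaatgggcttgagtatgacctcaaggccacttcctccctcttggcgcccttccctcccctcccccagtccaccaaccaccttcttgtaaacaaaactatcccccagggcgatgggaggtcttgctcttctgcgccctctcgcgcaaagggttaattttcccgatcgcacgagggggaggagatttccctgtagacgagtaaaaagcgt
Pnpla3: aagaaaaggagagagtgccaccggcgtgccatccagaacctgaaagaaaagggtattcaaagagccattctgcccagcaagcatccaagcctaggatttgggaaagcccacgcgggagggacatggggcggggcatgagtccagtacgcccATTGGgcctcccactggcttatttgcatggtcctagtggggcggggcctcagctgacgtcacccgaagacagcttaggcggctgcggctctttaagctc
Fasn: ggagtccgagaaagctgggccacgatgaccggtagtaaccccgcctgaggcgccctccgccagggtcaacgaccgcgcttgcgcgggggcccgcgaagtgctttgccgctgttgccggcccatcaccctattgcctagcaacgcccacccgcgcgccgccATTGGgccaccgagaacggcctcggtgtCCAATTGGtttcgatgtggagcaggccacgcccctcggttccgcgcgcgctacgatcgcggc
Fasn held 3 matches, 1 of ATTGG and a pair that overlap in CCAATTGG, while Acacb and Pnpla3 held 1 each and Elovl6 held none. Of the 10 genes, 9 had an entry, with 12 promoters, and Scd1 is named only. CCAAT on either strand lay in 7 of these 12 promoters, from 6 genes, and in 33.9% of 32851 mouse promoters of the same length. The E-box CACGTG and the sterol element TCACNCCAC, each searched on both strands, were found in 1 of the 12 each, both times in Mlxipl, against 6.02% and 1.05% of all promoters. These matches are letters in a window and carry no measure of binding.

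Each value is the log2 ratio of the signal of an animal to the average of the 5 vehicle mice that share its genotype, so vehicle animals scatter about 0 in each genotype and a value of -1 is a halved signal. The level in PXR-KO vehicle livers was therefore not compared with that in WT vehicle livers. For the same reason the ratios of Nr1i2, 0.32 to 0.66 in PXR-KO CMP013 and -0.10 to 0.14 in PXR-KO vehicle livers, say nothing of whether the gene was deleted. Cyp2b10, a drug metabolism gene driven by PXR and its relative CAR, lay at -2.02 to -0.34 in PXR-KO CMP013 livers against -0.32 to 0.47 in PXR-KO vehicle livers, and at 6.04 to 6.64 in WT CMP013 livers against -0.27 to 0.31 in WT vehicle livers, with 2 treated WT animals at the limit of the scale. Of 4 such targets measured, 3 fell in PXR-KO and 4 rose in WT livers. An earlier look at these arrays set 4 vehicle animals apart from the rest, PXR-KO vehicle replicates 2 and 4 and WT vehicle replicates 3 and 4. The fits were repeated without them, which brought the calls over all probe sets to 363 against 1645 in PXR-KO livers. Those fits had fewer vehicle animals and so less power. A call lost in them does not alone show that it rested on those animals. The log2 fold change is the mean of CMP013 minus the mean of vehicle. A gene is said to rise or fall where limma gave a Benjamini-Hochberg adjusted p under 0.05 over all 45037 probe sets. The p-values weigh a difference of means against the spread between animals, pooled over the groups of a fit. The groups did not spread alike. For Acacb by 1427052_at the SD was 1.05 in PXR-KO CMP013 livers and 0.19 to 0.39 in the other groups. In whole liver, fewer cells of a type and less RNA per cell cannot be told apart.

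**Figure D1:**
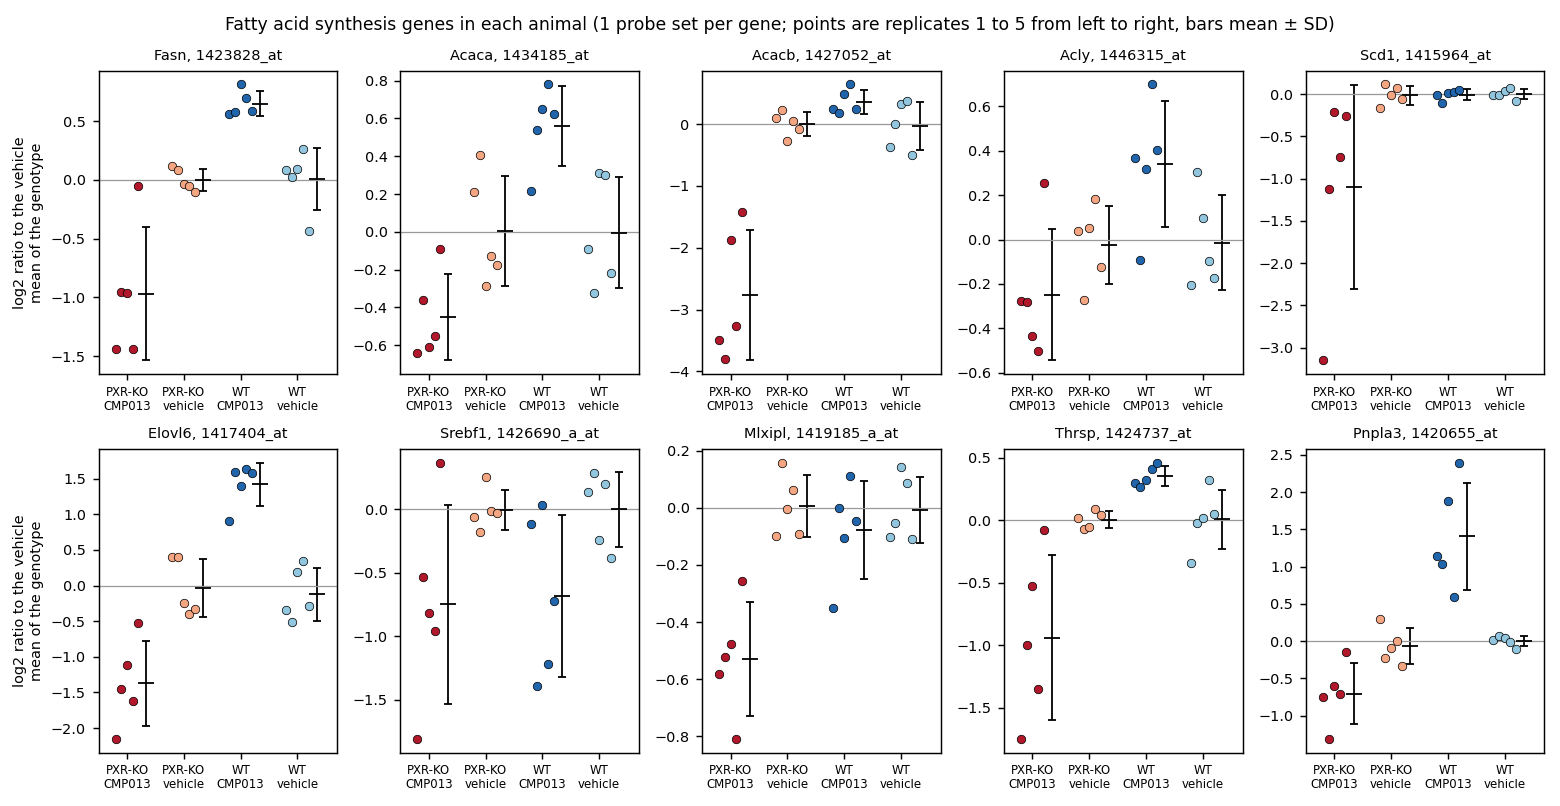
Log2 ratio to the vehicle mean of the same genotype (vertical axis) for 1 probe set of each of the 10 genes, in PXR-KO CMP013, PXR-KO vehicle, WT CMP013 and WT vehicle livers. Points are replicates 1 to 5 from left to right, and bars give the mean ± SD of the 5 animals. Acacb lies at -3.80 to -1.42 in PXR-KO CMP013 livers, and Elovl6 lies below 0 in all PXR-KO CMP013 and above 0 in all WT CMP013 livers.

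In livers without PXR, CMP013 lowered part of the pathway and raised none of it. By 1 probe set per gene, 3 of the 10 genes fell, namely Acacb, Elovl6 and Mlxipl, and none rose, while 2.14% of all 18193 genes fell and 2.50% rose. All 10 log2 fold changes were below 0, with a median of -0.84 against -0.02 over all genes. Counting a gene by any of its probe sets, Acly and Scd1 fell too, and 7 of the 22 probe sets fell and none rose, against 1.54% and 2.12% of all probe sets. At 10 of the 22 probe sets every treated animal lay below every vehicle animal, which was the case for 3.50% of all probe sets, and at none did every treated animal lie above, against 4.07% of all. The count of 3 genes was 0 without the 4 vehicle animals named above, although the fold change of Acacb was then still -2.69 (adjusted p = 0.0741), and none of the 7 probe sets was called either.

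In livers with PXR part of the pathway rose and none of it fell. Fasn, Acaca, Elovl6 and Pnpla3 rose, 4 of 10 genes, against 9.72% of all genes, and none of the 10 fell, against 7.98% of all genes. By any probe set Thrsp rose as well. Of the 22 probe sets 6 rose and none fell, against 7.67% and 6.72% of all probe sets. At 4 of the 22 every treated animal lay above every vehicle animal and at none did all lie below, against 7.78% and 6.96% of all. The median log2 fold change of the 10 genes was 0.37 against -0.00111 over all genes. The fold change was below 0 at 3 of the 10 genes, with Srebf1 the lowest at -0.68, and at 5 of the 22 probe sets. Without the 4 vehicle animals named above Fasn, Acaca and Elovl6 kept the call and Pnpla3 did not (adjusted p = 0.0626). Of the 6 probe sets that rose, 5 were still called then.

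The test of the difference itself, WT response minus PXR-KO response, was past the threshold at 6 of 10 genes, Fasn, Acaca, Acacb, Elovl6, Thrsp and Pnpla3, all in the direction of a higher WT response. Over all genes the WT response was called higher at 7.39% and lower at 6.22%. At the level of probe sets the WT response was called higher at 12 of 22 and lower at none, which added Acly and Scd1, against 5.47% and 5.49% of all probe sets, and the difference was above 0 at all 22. Its median over the 10 genes was 1.18 against 0.02 over all genes. The 6 calls also held without the 4 vehicle animals named above, with adjusted p values of 0.000795 to 0.0486, and so did 11 of the 12 probe sets.

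**Figure D2:**
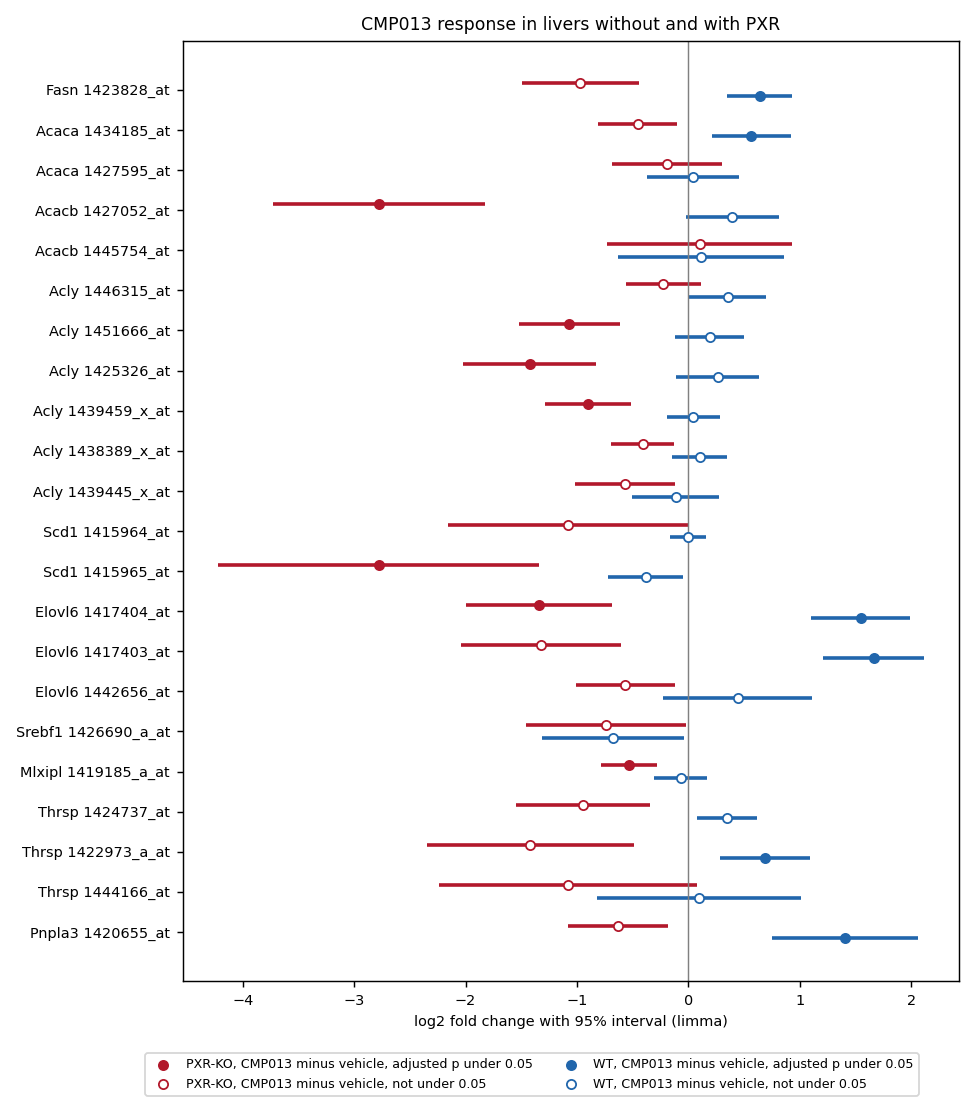
Log2 fold change, CMP013 minus vehicle, with its 95% interval from limma for the 22 probe sets of the 10 genes, PXR-KO above WT in each pair. Filled points have an adjusted p under 0.05. In PXR-KO livers 7 filled points lie below 0 and none above, and in WT livers 6 filled points lie above 0 and none below.

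Acacb, which makes the malonyl-CoA that holds back fatty acid oxidation at the mitochondrion, had the lowest log2 fold change of the 10 genes in PXR-KO livers by 1 probe set per gene. Its probe set 1427052_at read -3.49, -3.80, -1.88, -3.26 and -1.42 in PXR-KO CMP013 replicates 1 to 5, against 0.09, 0.23, -0.28, 0.06 and -0.07 in PXR-KO vehicle replicates 1 to 5. The treated and vehicle animals did not overlap, and replicates 3 and 5 fell least. The log2 fold change was -2.78 with a standard error of 0.43 (limma, adjusted p = 0.00979), or 14.6% of the vehicle level. In WT CMP013 livers the values were 0.24, 0.19, 0.49, 0.64 and 0.24, against -0.37, 0.00, 0.32, 0.37 and -0.49 in WT vehicle livers, and the groups overlapped (fold change of 0.39 on the log2 scale, adjusted p = 0.206). The responses differed by 3.17 (95% interval 2.14 to 4.20, adjusted p = 0.000388). The other probe set, 1445754_at, showed none of this, with log2 fold changes of 0.10 in PXR-KO and 0.11 in WT livers (adjusted p = 0.912 and 0.874).

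Acaca, the carboxylase that feeds fatty acid synthesis in the cytosol, parted the genotypes less widely. Its probe set 1434185_at read -0.64, -0.36, -0.61, -0.55 and -0.09 in PXR-KO CMP013 livers and -0.29 to 0.40 in PXR-KO vehicle livers. It read 0.21, 0.54, 0.65, 0.78 and 0.62 in WT CMP013 livers and -0.32 to 0.31 in WT vehicle livers. Treated animals were the lower ones without PXR and the higher ones with it, with overlap in both genotypes. The log2 fold change was -0.46 in PXR-KO (standard error 0.16, adjusted p = 0.151) and 0.57 in WT livers (standard error 0.16, adjusted p = 0.0400), and the responses differed by 1.02 (adjusted p = 0.00714). The WT call is close to the threshold and was lost without any 1 of WT CMP013 replicates 2, 3, 4 and 5 and WT vehicle replicates 1, 2 and 5, with adjusted p values up to 0.0905. At 1427595_at, the other probe set, the responses differed by 0.23 (adjusted p = 0.678).

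Fasn, the synthase itself, rose in WT livers and narrowly missed the threshold on the lower side in PXR-KO livers. In PXR-KO CMP013 livers 1423828_at read -1.44, -0.96, -0.96, -1.44 and -0.05, against 0.12, 0.09, -0.04, -0.05 and -0.10 in PXR-KO vehicle livers. Replicates 1 to 4 lay far below all vehicle animals and replicate 5 lay among them. The log2 fold change there was -0.97 with a standard error of 0.24 (adjusted p = 0.0526). Leaving out PXR-KO CMP013 replicate 5 made it -1.20 (adjusted p = 0.00398). That was the 1 call in the 10 fits that left out 1 PXR-KO animal (adjusted p of 0.00398 to 0.126 over the 10). Without the 4 vehicle animals named above the adjusted p was 0.188. In WT CMP013 livers the values were 0.56, 0.58, 0.81, 0.70 and 0.59, against 0.08, 0.03, 0.09, 0.27 and -0.44 in WT vehicle livers. All treated WT animals lay above all their controls, and Fasn rose by 0.64 (standard error 0.13, adjusted p = 0.00977). The responses differed by 1.61 (95% interval 1.03 to 2.20, adjusted p = 0.000995).

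Elovl6, which elongates palmitate to stearate, was the 1 gene of the 10 that fell in PXR-KO and rose in WT livers by the same probe set. By 1417404_at the PXR-KO CMP013 livers read -2.15, -1.45, -1.12, -1.62 and -0.53, against 0.40, 0.41, -0.25, -0.40 and -0.33 in PXR-KO vehicle livers. The WT CMP013 livers read 0.91, 1.59, 1.39, 1.64 and 1.58, against -0.35, -0.51, 0.19, 0.34 and -0.29 in WT vehicle livers. Neither pair of groups overlapped. The log2 fold change was -1.34 in PXR-KO (standard error 0.29, adjusted p = 0.0381) and 1.55 in WT livers (standard error 0.20, adjusted p = 0.000937), which is 39.6% and 292% of the vehicle level. The fall without PXR was called in 2 of the 10 fits that left out 1 PXR-KO animal, those without CMP013 replicate 3 or 5 (adjusted p of 0.0166 to 0.101 over the 10), while the WT rise was called in all 10 fits that left out 1 WT animal. Without the 4 vehicle animals named above the log2 fold change in PXR-KO livers was -1.31 (adjusted p = 0.134). The difference was 2.88 (95% interval 2.11 to 3.66, adjusted p = 6.54e-05), and a second probe set, 1417403_at, gave 2.99 (adjusted p = 9.57e-05). That probe set rose by 1.66 in WT livers (adjusted p = 0.000689), while in PXR-KO livers its log2 fold change was -1.33 with overlapping groups (adjusted p = 0.0525), so the fall without PXR was called by 1417404_at alone. The third, 1442656_at, passed no test, with -0.57 in PXR-KO and 0.44 in WT livers (adjusted p = 0.150 and 0.388) and a difference of 1.01 (adjusted p = 0.0940).

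Pnpla3, a lipase of the lipid droplet, gave its clear change with PXR present. The values of 1420655_at were -0.74, -1.31, -0.60, -0.71 and -0.15 in PXR-KO CMP013 livers, against 0.30, -0.23, -0.10, 0.01 and -0.33 in PXR-KO vehicle livers. They were 1.14, 1.04, 1.88, 0.60 and 2.40 in WT CMP013 livers, against 0.02, 0.07, 0.05, -0.01 and -0.11 in WT vehicle livers. Treated PXR-KO animals overlapped their controls through replicate 5, and treated WT animals all lay higher, with a wide spread. Pnpla3 rose in WT livers by 1.41 (standard error 0.29, adjusted p = 0.0111), and without the 4 vehicle animals named above the adjusted p was 0.0626. In PXR-KO livers the log2 fold change was -0.63 (standard error 0.20, adjusted p = 0.115). The responses differed by 2.04 (adjusted p = 0.00150).

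Thrsp, the thyroid hormone responsive Spot 14 protein of lipogenic tissues, gave a difference between genotypes rather than a call within either by 1424737_at. There PXR-KO CMP013 livers read -1.75 to -0.08, against -0.07 to 0.09 in PXR-KO vehicle livers, and WT CMP013 livers read 0.27 to 0.46, against -0.34 to 0.32 in WT vehicle livers. Every treated PXR-KO animal lay below every control, by little in replicate 5. The log2 fold changes were -0.94 in PXR-KO (adjusted p = 0.0871) and 0.35 in WT livers (adjusted p = 0.0853), and the responses differed by 1.29 (adjusted p = 0.0104). Probe set 1422973_a_at gave a rise of 0.68 in WT livers (adjusted p = 0.0319), a log2 fold change of -1.42 in PXR-KO livers (adjusted p = 0.0934) and a difference of 2.10 (adjusted p = 0.00782). At 1444166_at the difference was 1.18 (adjusted p = 0.316).

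Acly and Scd1 fell in PXR-KO livers by some of their probe sets and not by the 1 that stands for the gene. For Acly, 1425326_at read -2.04, -1.71, -0.97, -1.71 and -0.66 in PXR-KO CMP013 livers, against 0.15, 0.44, -0.27, 0.04 and -0.33 in PXR-KO vehicle livers, with no overlap. Its log2 fold change was -1.43 (adjusted p = 0.0216), and 1451666_at and 1439459_x_at fell as well, by 1.07 and 0.90. In WT livers the 6 Acly probe sets had log2 fold changes of -0.12 to 0.35 and none passed the test. The probe set that stands for the gene, 1446315_at, had the smallest spread in vehicle livers among those without _x_ in the identifier. It gave -0.22 in PXR-KO (adjusted p = 0.444) and a difference of 0.58 (adjusted p = 0.102). The remaining probe sets, 1438389_x_at and 1439445_x_at, gave -0.41 and -0.57 in PXR-KO livers (adjusted p = 0.111 and 0.155) and differences of 0.51 and 0.45 (adjusted p = 0.0541 and 0.326), and the treated and vehicle PXR-KO animals did not overlap at 1438389_x_at. Without the 4 vehicle animals named above, none of the 3 probe sets that fell was called in PXR-KO livers (adjusted p of 0.110 to 0.120).

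Scd1, which makes oleate from stearate, had the single lowest value of the 10 genes. By 1415965_at it read -5.17, -3.40, -1.49, -2.70 and -1.12 in PXR-KO CMP013 livers, against 0.26, 0.08, -0.07, -0.21 and -0.04 in PXR-KO vehicle livers, and -0.59, -0.10, -0.55, -0.05 and -0.61 in WT CMP013 livers, against -0.18, 0.32, 0.04, -0.02 and -0.15 in WT vehicle livers. The treated PXR-KO animals ranged widely and none reached its controls. Scd1 fell there by 2.78 (standard error 0.65, adjusted p = 0.0462), the WT log2 fold change was -0.38 (adjusted p = 0.129) and the responses differed by 2.40 (adjusted p = 0.0347). Without the 4 vehicle animals named above neither call was made (adjusted p = 0.164 in PXR-KO livers and 0.142 for the difference). The other probe set, 1415964_at, read -3.15, -1.12, -0.21, -0.74 and -0.26 in PXR-KO CMP013 livers, against -0.17 to 0.11 in PXR-KO vehicle livers. Its values for the treated PXR-KO animals also lay below all controls, with replicate 1 furthest down and a wide spread. The log2 fold change was -1.08 with a standard error of 0.48 (adjusted p = 0.247). By this probe set, which stands for the gene, the difference between the responses was 1.08 (adjusted p = 0.200).

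Of the 2 transcription factors, Mlxipl fell in PXR-KO livers and Srebf1 did not pass the test in either genotype. Srebf1, by its 1 probe set 1426690_a_at, read -1.81, -0.53, -0.82, -0.95 and 0.36 in PXR-KO CMP013 livers, against -0.06, -0.18, 0.25, -0.01 and -0.03 in PXR-KO vehicle livers. It read -0.12, -1.39, 0.03, -1.22 and -0.72 in WT CMP013 livers, against 0.13, 0.28, -0.24, 0.20 and -0.38 in WT vehicle livers. In PXR-KO livers treated replicates 1 to 4 lay below all controls and replicate 5 lay above all of them. In WT livers treated replicates 2, 4 and 5 lay below all controls, and replicates 1 and 3 stood among them. The log2 fold changes were -0.74 in PXR-KO and -0.68 in WT livers (adjusted p = 0.234 and 0.154), and the difference was 0.06 with a 95% interval of -0.88 to 1.01 (adjusted p = 0.951), which leaves room for a difference in either direction. Whether the probe set separates SREBP-1c from SREBP-1a was not tested.

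Mlxipl, by its 1 probe set 1419185_a_at, read -0.58, -0.52, -0.48, -0.81 and -0.25 in PXR-KO CMP013 livers, against -0.10 to 0.16 in PXR-KO vehicle livers. All treated animals lay below all controls. It fell by 0.53 (standard error 0.11, adjusted p = 0.0323), a call that was kept in 3 of the 10 fits without 1 PXR-KO animal, those without CMP013 replicate 3 or 5 or vehicle replicate 1 (adjusted p of 0.0209 to 0.0781 over the 10). Without the 4 vehicle animals named above the log2 fold change was -0.46 (adjusted p = 0.149). In WT livers the values were -0.35 to 0.11 with CMP013 and -0.11 to 0.14 with vehicle, and the log2 fold change was -0.07 (adjusted p = 0.725). The difference of 0.46 lay just past the threshold on the side without a call (adjusted p = 0.0501).

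**Figure D3:**
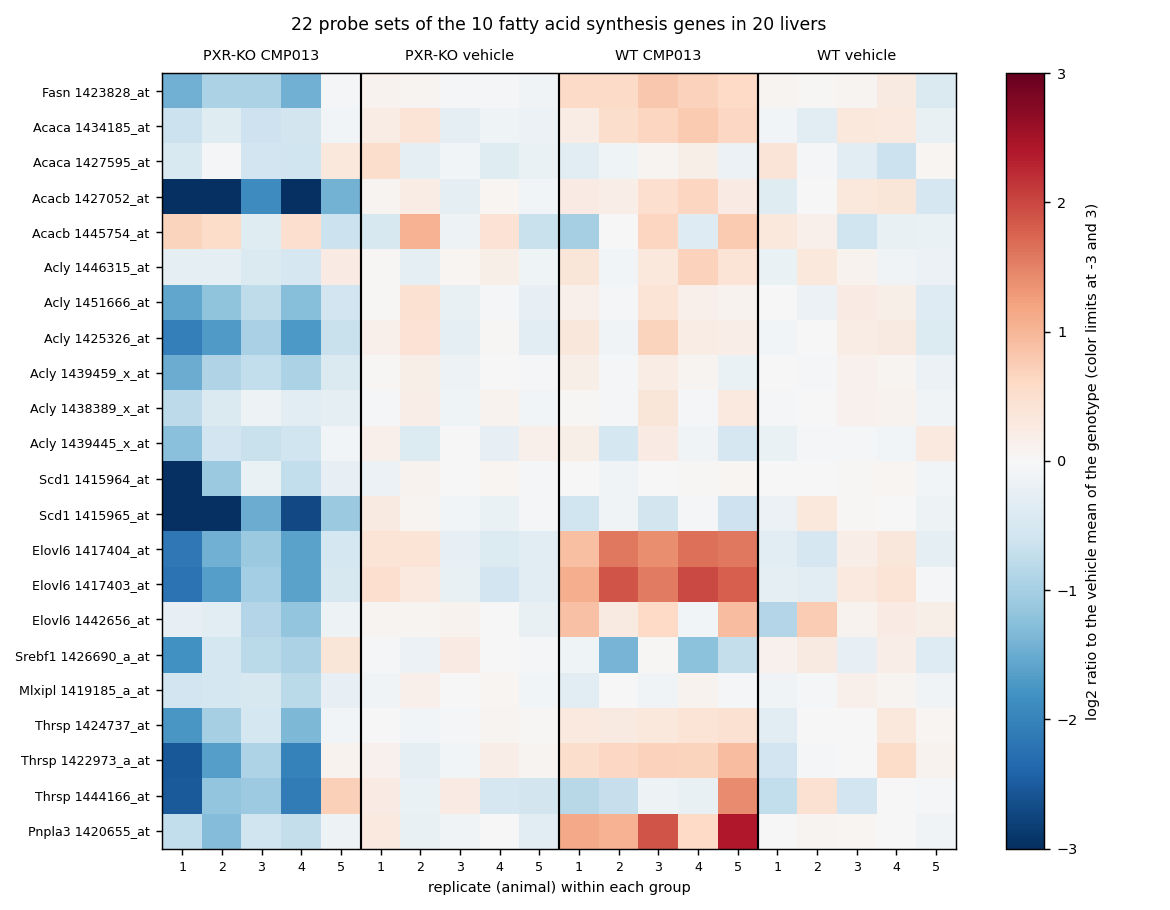
Log2 ratio to the vehicle mean of the same genotype (color, limits at -3 and 3) for the 22 probe sets of the 10 genes (rows) in the 20 livers (columns, replicates 1 to 5 within PXR-KO CMP013, PXR-KO vehicle, WT CMP013 and WT vehicle). PXR-KO CMP013 replicate 5 is paler than the other 4 in its group, and the Elovl6 rows 1417404_at and 1417403_at are blue in PXR-KO CMP013 and red in WT CMP013 livers.

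The treated PXR-KO animals differed among themselves as a set. Averaged over the 10 genes, the log2 ratio was -1.60, -1.13, -0.76, -1.19 and -0.22 in PXR-KO CMP013 replicates 1 to 5, against -0.13 to 0.08 in PXR-KO vehicle livers. Replicate 5 was the highest of its group at 19 of the 22 probe sets and replicate 1 the lowest at 14. The average was 0.33, 0.26, 0.58, 0.44 and 0.56 in WT CMP013 livers, against -0.22 to 0.19 in WT vehicle livers, so no treated WT animal stood out. In PXR-KO CMP013 replicates 1 to 5, 9, 9, 9, 10 and 2 of the 10 genes were below the vehicle mean by at least a log10 ratio of 0.097, the size threshold of the methods, against 0, 0, 0, 1 and 2 in PXR-KO vehicle replicates 1 to 5. Of all 18193 genes, 17.2% to 21.7% lay that far down in the treated animals and 8.92% to 16.1% in the vehicle animals, and replicate 5 was at 17.3%. Without PXR-KO CMP013 replicate 5 the count of genes that fell was 5 rather than 3, with Fasn and Thrsp added. Without PXR-KO CMP013 replicate 1, 2 or 4, or PXR-KO vehicle replicate 2, 3, 4 or 5, it was 1, and Acacb was the gene that stayed.

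Markers of other liver cells moved with treatment as well. Of the hepatocyte markers, 4 of 4 measured did not pass the test in either genotype, and their mean per animal was -0.28 to -0.12 in PXR-KO CMP013, -0.16 to 0.18 in PXR-KO vehicle, -0.16 to 0.13 in WT CMP013 and -0.14 to 0.13 in WT vehicle livers. Of 7 macrophage markers, Marco and Cd68 rose in PXR-KO livers (4.22 and 1.11). Clec4f, Adgre1, Timd4, Vsig4 and Cd5l did not pass the test there (-0.28, -0.14, -0.00018, 0.23 and 0.37). The mean of the list per animal was 0.47 to 0.87 in PXR-KO CMP013 against -0.59 to 0.62 in PXR-KO vehicle livers. Marco weighed most in that mean, at 2.51 to 3.72 in PXR-KO CMP013 and -2.38 to 1.47 in PXR-KO vehicle livers. In WT livers Vsig4 and Clec4f fell, and the mean was -0.40 to -0.06 with CMP013 against -0.48 to 0.21 with vehicle. Of 4 neutrophil and lymphocyte markers, S100a8 rose by 2.08 in PXR-KO livers, and the mean was 0.36 in PXR-KO CMP013 replicate 5 and 0.56 to 2.04 in the other 4, against -0.38 to 0.01 in PXR-KO vehicle livers. In the macrophage list replicate 5 had instead the highest mean of its group (0.87, with 0.47 to 0.63 in the other 4). S100a8 and S100a9 rose in WT livers (1.12 each), with a mean of 0.26 to 0.71 with CMP013 against -0.29 to 0.28 with vehicle. The difference, WT minus PXR-KO response, passed the test at the macrophage markers Marco, Cd68 and Vsig4 (-4.11, -0.92 and -0.69) and at the lymphocyte marker Cd3e (-1.26). Without the 4 vehicle animals named above, Vsig4 and Cd3e did not pass (adjusted p = 0.112 and 0.198). The ratios do not show which markers were near 0 in level, and the part of these cells in the results was not tested.

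Of 5 endothelial markers, Lyve1 rose and Kdr fell in PXR-KO livers (1.12 and -0.41), and Clec4g, Stab2 and Kdr fell in WT livers (-0.61, -0.63 and -0.48). Of 5 stellate cell markers none passed the test in PXR-KO livers, and Dcn and Lrat fell in WT livers (-0.80 and -0.71). The difference passed the test at Lyve1, Clec4g, Dcn and Lrat (-1.27, -0.57, -0.85 and -0.81), with or without the 4 vehicle animals named above. None of 4 bile duct markers and none of 4 adipocyte markers passed the test in either genotype. For the adipocyte marker Plin4 the log2 fold change was 1.47 in PXR-KO (adjusted p = 0.0667) and -0.63 in WT livers (adjusted p = 0.426), and the difference of -2.11 passed the test (adjusted p = 0.0383), though not without the 4 vehicle animals named above (adjusted p = 0.204). The mean of the adipocyte markers per animal, which bears on fat attached to the liver pieces, was -0.66 to 0.33 in PXR-KO CMP013 against -0.39 to 0.10 in PXR-KO vehicle livers, and -1.15 to -0.07 in WT CMP013 against -0.45 to 0.38 in WT vehicle livers.

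Part of the calls in the lists around the pathway, markers included, were not made in the fits without the same 4 vehicle animals. Of 109 genes in these lists, 20 were called in PXR-KO livers, and without the 4 animals Me1, Elovl3, Cyp2c55, Cd68 and Lyve1 were the 5 that kept the call. In WT livers 26 of 45 calls were kept, and 18 of 29 for the difference. None of the called genes changed sign.

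Enzymes that supply carbon and NADPH to fatty acid synthesis fell in part without PXR as well. Of 6 measured, Me1 and Acss2 fell in PXR-KO livers, by 1.66 (adjusted p = 0.00482) and 1.37 (adjusted p = 0.0197), and none rose. Me1, the malic enzyme that makes NADPH, rose by 0.50 in WT livers (adjusted p = 0.0313), and Pgd, of the pentose phosphate pathway, rose by 1.15 (adjusted p = 0.000320). The responses differed for Pgd, Me1 and Acss2, by 1.60, 2.16 and 1.65. The median log2 fold change of the 6 was -0.40 in PXR-KO and 0.23 in WT livers, with the medians of all genes near 0 as given above.

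Other elongases and desaturases were mixed. Elovl3 and Elovl5 fell in both genotypes, with log2 fold changes of -3.38 and -0.81 in PXR-KO livers and of -1.92 and -0.97 in WT livers, and their responses did not pass the test of the difference (1.46, adjusted p = 0.110 and -0.15, adjusted p = 0.695). In WT livers Elovl2 and Fads2 fell as well, and Elovl1 and Hacd2 rose by 0.96 and 0.44, so that 4 of 12 fell and 2 rose there, against 2 that fell and none that rose in PXR-KO livers. The responses differed at Elovl1 (1.45, adjusted p = 0.000137) and Hacd2 (0.32, adjusted p = 0.0485). The medians were -0.33 in PXR-KO and -0.01 in WT livers.

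Among 12 genes of triglyceride synthesis and the lipid droplet, Gpam, which adds the first acyl chain to glycerol 3-phosphate, fell by 0.76 in PXR-KO livers (adjusted p = 0.0258) and rose by 0.48 in WT livers (adjusted p = 0.0206). It was the 1 gene of the list whose responses differed (1.24, adjusted p = 0.000320). Agpat2 fell by 0.40 in each genotype, Dgat1 rose by 0.52 in PXR-KO livers, and Cidec rose by 0.75 and Cideb fell by 0.36 in WT livers. The medians were -0.15 in PXR-KO and -0.05 in WT livers.

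The control layer above the enzymes was read next. Of all genes, 2.14% fell and 2.50% rose in PXR-KO livers, and 7.98% fell and 9.72% rose in WT livers. Of 6 genes of SREBP cleavage, Scap, the escort of SREBP, fell in both genotypes (-0.55 in PXR-KO and -0.57 in WT livers). Insig2, which retains SREBP in the endoplasmic reticulum, fell by 0.64 in PXR-KO livers (adjusted p = 0.0165), and its responses differed by 1.05 (adjusted p = 0.00189). The protease Mbtps2 rose by 0.46 in WT livers, with 0.04 in PXR-KO livers (adjusted p = 0.839) and a difference of 0.42 (adjusted p = 0.0253). Neither its WT rise nor its difference was called without the 4 vehicle animals named above (adjusted p = 0.0643 and 0.0680). Insig1 had log2 fold changes of -0.18 and 0.46 in PXR-KO and WT livers (adjusted p = 0.573 and 0.0947). The medians were -0.16 in PXR-KO and 0.12 in WT livers. Of 13 further regulators of lipogenesis none passed in PXR-KO livers, where Ppargc1b had the lowest log2 fold change (-1.13, adjusted p = 0.125), and Rxra, Ppargc1b and Nr0b2 fell in WT livers (-0.31, -0.70 and -0.79). None of the 13 passed the test of the difference, and the medians were -0.06 in PXR-KO and -0.15 in WT livers.

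Sterol synthesis, the branch driven by SREBP-2, was read with the sterol carrier Stard4, and no gene of this list fell in either genotype. Of its 9 genes, Cyp51 and Idi1 rose in PXR-KO livers (0.74 and 0.83). In WT livers 8 rose, all but Stard4 (-0.09, adjusted p = 0.631). Dhcr7, Cyp51, Sqle and Fdft1 (0.76, 0.63, 0.95 and 1.09) had the smallest adjusted p there. The difference passed the test at 2 of the 9, Mvd (1.55) and Dhcr7 (0.82). The medians were 0.20 in PXR-KO and 0.76 in WT livers, where the fatty acid synthesis genes had -0.84 and 0.37.

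Genes that answer to sugar and to fasting were read beside these, since food intake was not measured. Of 7 sugar response genes, Pklr, the liver pyruvate kinase, fell by 0.92 in PXR-KO livers (adjusted p = 0.0104), while Slc2a2, G6pc and Txnip fell and Tkfc rose in WT livers (-0.42, -0.98, -0.81 and 1.28). The responses differed at Slc2a2 (-0.50) and Tkfc (0.74), and the medians were -0.20 in PXR-KO and -0.31 in WT livers. Of 7 genes that fasting raises, none passed the test in PXR-KO livers. Their mean per animal was 0.26, 0.26, 0.13, 0.82 and -0.14 in PXR-KO CMP013 replicates 1 to 5, against -0.17 to 0.10 in PXR-KO vehicle livers, and replicate 5 had the lowest mean here and the smallest change of the fatty acid synthesis genes. In WT livers Pck1, Cpt1a and Ppargc1a fell (-0.64, -0.44 and -2.24), and the mean was -0.87 to -0.71 with CMP013 against -0.30 to 0.16 with vehicle, without overlap. Pdk4 had a WT log2 fold change of 1.02 (adjusted p = 0.110), opposite in direction to the genes that fell. The responses differed at Cpt1a, Ppargc1a, Pck1 and Fgf21 (-0.58, -2.22, -0.54 and -2.57). Without the 4 vehicle animals named above none of these differences was called (adjusted p of 0.0847 to 0.165). The WT fall of Ppargc1a was not called then either (adjusted p = 0.0762). The medians of the list were 0.14 in PXR-KO and -0.62 in WT livers. The part of feeding in the results was not tested.

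**Figure D4:**
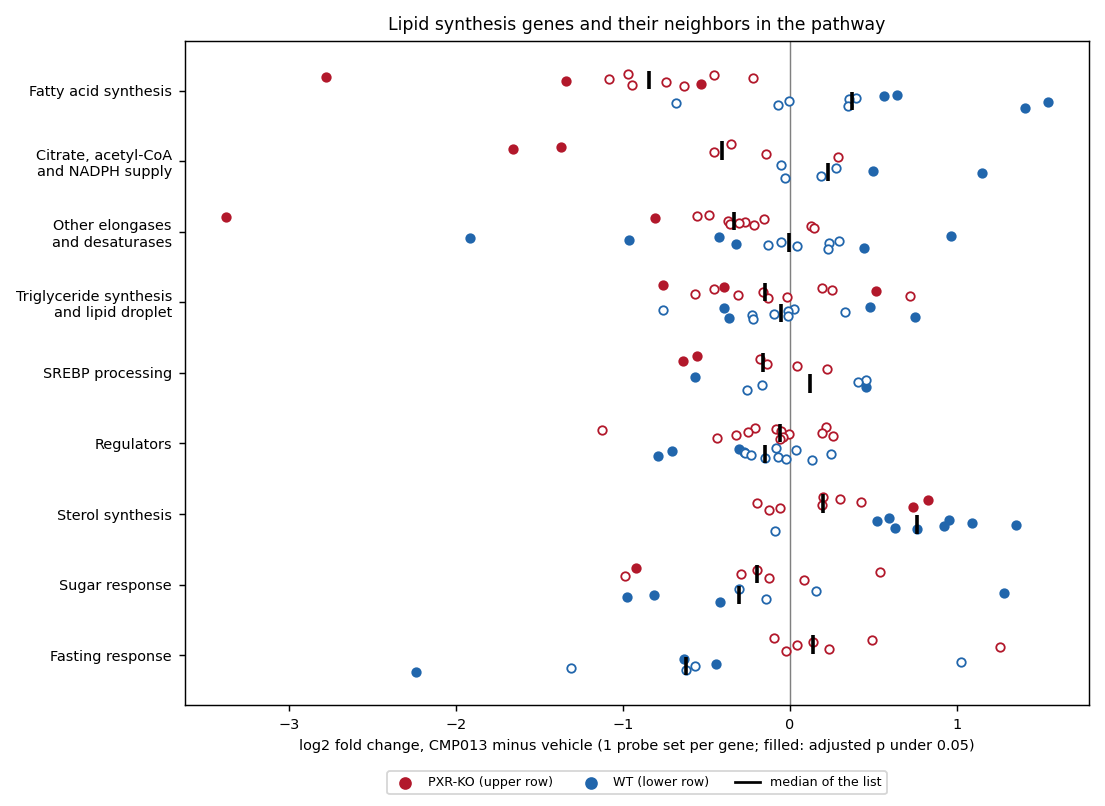
Log2 fold change, CMP013 minus vehicle, of each measured gene in the fatty acid synthesis list and 8 lists around it, by 1 probe set per gene, with PXR-KO in the upper and WT in the lower row of each list. Filled points have an adjusted p under 0.05 and vertical bars are list medians. The median of fatty acid synthesis is -0.84 in PXR-KO and 0.37 in WT livers. That of the sterol synthesis list, which includes the sterol carrier Stard4, is 0.20 in PXR-KO and 0.76 in WT livers.

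Over the 20 livers, the 5 genes with the pattern most like that of Fasn by Pearson correlation of log2 ratios were Gpam (0.98), Slc23a1 (0.95), Dlat (0.94), Gstm6 (0.94) and Elovl6 (0.94). Among the other fatty acid synthesis genes the correlation with Fasn was 0.92 for Thrsp, 0.91 for Acacb, 0.88 for Acaca and 0.36 for Srebf1, the lowest of the 9. These are descriptions over 20 points that share 4 groups and the vehicle means they were divided by. The genes below were picked for this likeness in the same arrays. The direction of their responses therefore follows largely from the choice, and their p-values are no separate evidence. Slc23a1, an ascorbate transporter, had log2 fold changes of -0.51 in PXR-KO livers (adjusted p = 0.0627) and 0.36 in WT livers (adjusted p = 0.0426). Dlat, a subunit of pyruvate dehydrogenase, fell by 0.63 in PXR-KO livers (adjusted p = 0.0361) and rose by 0.53 in WT livers (adjusted p = 0.00477). Gstm6, a glutathione transferase, also fell in PXR-KO livers (adjusted p = 0.0213) and rose in WT livers (adjusted p = 0.000212), and its responses differed by 2.01. Without the 4 vehicle animals named above, neither Dlat nor Gstm6 was called in PXR-KO livers (adjusted p = 0.153 and 0.110) and Slc23a1 was not called in WT livers (adjusted p = 0.0634).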

How the data were processed

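Total RNA from 20 livers was hybridized to Affymetrix Mouse430_2 arrays, 1 per mouse and without technical replication, and the authors deposited log10 ratios made in Rosetta Resolver 7.2, each being the intensity of 1 animal divided by the average of the 5 vehicle mice of that genotype. Here they were multiplied by the log2 of 10 and kept with the normalization of the authors. The ratios lie within -2 and 2 on the log10 scale, and 7 values, none of them of a member, stand at that limit. Array medians were -0.03 to 0.01 log2 units, and no pair of arrays was a copy (highest correlation 0.593). No intensities, detection calls or platform p-values were used, which leaves signal over background unknown, and no dim probe set was removed. The number of arrays limits the precision. RNA integrity is given in the labels by genotype only, with a lower range for PXR-KO livers.

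Of 45037 probe sets, 34945 name 1 gene in the platform annotation, 932 name several and 9160 name none. For a count over genes, 1 probe set stood for a gene, taken from those annotated to it alone, with identifiers free of _s_ or _x_ preferred and the smallest pooled SD of vehicle mice deciding. Every probe set of the 10 genes is described, and of each other list up to 4 genes with the smallest adjusted p among those called. The members, the 17 lists and the alternatives were chosen with earlier results of these data known. Of 124 genes in the other lists, 109 were measured and the rest were not analysed here.

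Fits used limma 3.58.1 (R 4.3.3), with 10 arrays for CMP013 against vehicle within a genotype and 20 arrays for the difference between the responses. Moderated, two-tailed p-values were adjusted by the Benjamini-Hochberg method over all probe sets. The fits were checked on simulated data. Exact two-sided permutation tests over 252 splits, the smallest p of which is 0.00794, served as an alternative. Promoters were searched in Python 3.11.15, and numpy 2.4.6, pandas 2.3.3, matplotlib 3.10.9 and, in R, data.table (version 1.17.8) handled tables and figures. Other alternatives were quantile normalization, a common array median, the replicate number as a block, trend and robust variances, array weights, all 4 groups in one fit, other ways of joining probe sets, and leaving out animals.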

Additional observations from a re-analysis of the deposited data

Results flagged for a closer look

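The test of the difference, WT minus PXR-KO response, passed the adjusted threshold in limma at 12 of 22 probe sets. These came from 8 fatty acid synthesis genes, all with the higher response in WT livers. Over all probe sets the WT response was called higher at 5.47% and lower at 5.49%. The differences were 3.17 for Acacb, 2.88 and 2.99 for the 2 called Elovl6 probe sets, 2.40 for Scd1, 2.04 for Pnpla3, 1.61 for Fasn and 1.02 for Acaca. For Thrsp they were 1.29 and 2.10, and for Acly 1.26, 1.69 and 0.944, with adjusted p values over the 12 of 6.54e-05 to 0.0347. The Scd1 call was not made without the 4 vehicle animals named above (adjusted p = 0.142).

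At the third Elovl6 probe set, 1442656_at, PXR-KO vehicle replicate 5 lay apart from the other 4 animals of its group, at -0.22 against 0.01 to 0.10 (Dixon ratio 0.727, with a limit of 0.71 for 5 animals). It was the 1 group of 88 tested that passed, and chance alone passes about 1 in 20.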

How the results depend on the processing

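The difference between genotypes kept its direction and its call for Fasn, Acacb, Elovl6, Thrsp and Pnpla3 in all 20 fits that left out 1 animal and in all 8 other alternatives run for it, and for Acaca in all 20 and in 6 of 8 (adjusted p = 0.0502 with the mean over probe sets and 0.120 with quantile normalization). The count of genes was 6, and 5 to 8 over the alternatives and 6 to 8 with 1 animal left out. The count of genes that fell in PXR-KO livers, 3 of 10, was the least stable. It was 5 with all 4 groups in one fit, 5 with the mean over probe sets, 5 with the probe set of largest change, 8 by exact permutation with unadjusted p, 1 with quantile normalization, 0 with trend and robust variances and 0 without the 4 vehicle animals that stand apart, and 1 to 5 with 1 animal left out. With trend and robust variances 7 of the 10 genes, and without the 4 vehicle animals 6, had an unadjusted p under 0.05. Of all 45037 probe sets, 8806 and 7049 had one in the same PXR-KO fits, so such values were common. No such count over all probe sets is given here for the permutation test. In WT livers the count of genes that rose, 4, was 2 with quantile normalization and 3 to 5 with 1 animal left out.

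Over all probe sets the PXR-KO count of 1645 was 3049 with all 4 groups in one fit, 495 with quantile normalization, 363 without the 4 vehicle animals, 620 to 1728 with 1 animal left out, and 0 with trend and robust variances, where 8806 probe sets had an unadjusted p under 0.05 and the smallest adjusted p of limma was 0.0536. The WT count of 6480 was 1773 with quantile normalization, 3308 without the 4 vehicle animals and 4758 to 5955 with 1 animal left out. The count for the difference, 4936, was 1231, 2544 and 3908 to 5120 in the same settings.

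Replicate numbers did not pair the samples, as the deviations of treated and vehicle animals of one number correlated at -0.24 to 0.07. With the number as a block the PXR-KO count was 119 probe sets and 0 of the 10 genes. An unadjusted p under 0.05 was found for 9 of the 10 genes and 7238 of all 45037 probe sets in that fit. The WT count was 3026 probe sets and 3 genes, and the count for the difference was 2497 probe sets and 6 genes.

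Values near 0 changed sign. The WT log2 fold change of Scd1, -0.0043, was 0.0064 with a common array median, 0.031 without the 4 vehicle animals and -0.024 to 0.021 with 1 animal left out. That of Mlxipl in WT livers was 0.0100 without the 4 vehicle animals. The difference for Srebf1 was -0.20 to 0.34 with 1 animal left out. The cause was not tested in any of these cases. Intensities were not used here, so the part of dim signal in probe sets that disagree, such as 1445754_at of Acacb, was not tested.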
